A study of Homo sapiens with 2 samples.

Results

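The genes described here are 9 transcriptional targets of p53, measured in EBC1-R lung cancer cells and in the EBC1 cells from which they were selected. They were taken from a list of gene names, MDM2, GDF15, FAS, SESN1, PLK2, ZMAT3, TP53I3, RRM2B and GADD45A, and all 9 of 9 were found among the 18377 genes of the array. EBC1-R survived stepwise increases of a MET kinase inhibitor, given in the labels as PHA-665752, and was kept in 3 µM of a MET inhibitor. EBC1 is the parental human lung cancer line, labelled wild type, which refers to the line before selection and not to the p53 gene. The study set the subline against its parent to look for mechanisms of resistance. Resistance and the presence of inhibitor cannot be told apart in this design, and the labels give neither the p53 genotype of the cells nor whether EBC1-R is 1 clone.

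p53 is a transcription factor that is kept scarce by the ubiquitin ligase MDM2 and accumulates after DNA damage, oncogene activity or ribosome stress. It binds paired decamers of DNA near its targets and raises genes that stop the cell cycle, repair DNA, limit growth or kill the cell, and MDM2 among them closes a negative feedback loop. Many of these genes also answer to other regulators, GDF15 and GADD45A to the stress factor ATF4 among them, so their transcripts do not report p53 alone. In lung squamous cancer the gene for p53 is often mutated, and a mutated protein may no longer raise these targets.

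There was 1 array per cell line, so no value has a replicate error, no test was possible, and differences are sizes only. Values are deposited log2 intensities, and a difference is EBC1-R minus EBC1. Across all genes the median difference was -0.03, and 95% of differences lay between -0.65 and 0.75. A level filter was set at 7.41, the median over genes of the brighter of both values. For 374 genes above it with several probe sets, the pooled SD between probe sets of 1 gene was 0.16 log2 units. This SD measures agreement between probe sets on these arrays, not the spread between cultures. It was not computed for genes under the filter. Epithelial markers were bright on both arrays, with EPCAM at 11.25 in EBC1-R and 11.33 in EBC1 and CDH1 at 12.06 in EBC1-R and 11.96 in EBC1. The keratin genes KRT8, at 12.01 in EBC1-R and 12.83 in EBC1, and KRT18, at 11.47 in EBC1-R and 12.26 in EBC1, were bright but lower in EBC1-R. In all, 8 of the 9 epithelial and squamous markers were lower, where 10197 of all 18377 genes were. Among those 8, EPCAM, KRT5, DSG3 and SOX2 differed by less than the SD between probe sets. The squamous markers KRT5, KRT14, DSG3 and SOX2 were under the filter on both. Of 6 leukocyte markers 5 were under the filter, all but CD68, and of 6 fibroblast and endothelial markers 5 were, all but COL1A1.

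Sequences near the starts of these genes, searched for the p53 response element, are shown first. RefSeq windows (GRCh38.p14) of 250 bases before to 50 bases after each annotated start were available for 7 of the 9 genes. They were searched for the p53 response element, here 2 adjoining consensus decamers with no spacer, at most 3 mismatches in 20 bases, and the central C and G of each decamer intact. This pattern is its own reverse complement, so 1 scan covers both strands, and the rule was set after other spacings had been looked at. A match was present in 1.12% of all 35116 windows and in 1.37% of all genes with a window, against 4 of the 7 described genes, which had been listed because p53 is known to act on them. The 4 matches are given 5′ to 3′ on the strand of the gene, with the element in capitals. Capitals mark only the best match of a window, so lower-case flanks may hold other stretches near the consensus. The MDM2 flank after its element holds such a stretch, which lacks a central C and so fell outside the rule. MDM2 and FAS differ from the consensus at 2 bases, GDF15 and SESN1 at 3.
MDM2 (chr12:68808883-68808982, + strand): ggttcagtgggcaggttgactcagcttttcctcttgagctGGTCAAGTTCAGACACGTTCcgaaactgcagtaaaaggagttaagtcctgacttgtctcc
GDF15 (chr19:18386181-18386207, + strand): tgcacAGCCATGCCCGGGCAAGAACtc
FAS (chr10:88991269-88991368, + strand): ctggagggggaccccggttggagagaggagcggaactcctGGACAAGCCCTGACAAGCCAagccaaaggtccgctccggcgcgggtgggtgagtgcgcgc
SESN1 (chr6:109008989-109009077, - strand): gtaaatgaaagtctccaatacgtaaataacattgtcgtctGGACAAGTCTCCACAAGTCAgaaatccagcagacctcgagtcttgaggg

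The MDM2, FAS and SESN1 elements lie before an annotated start, beginning 94, 122 and 49 bases upstream of it, and the GDF15 element lies within the transcript, at bases 29 to 48. MDM2 has 4 annotated windows, and the element is in 2 of them, both from the downstream pair of starts, while FAS and SESN1 each carry it in 1 of 3 windows. For PLK2 and TP53I3, which had the largest difference in each direction, the 250 bases before the start are printed because their windows held no such element. The PLK2 window holds 1 exact consensus decamer, in capitals, 132 to 123 bases before the start, which 6.63% of all windows do. No decamer was found in that of TP53I3.
PLK2 (chr5:58460087-58460336, - strand): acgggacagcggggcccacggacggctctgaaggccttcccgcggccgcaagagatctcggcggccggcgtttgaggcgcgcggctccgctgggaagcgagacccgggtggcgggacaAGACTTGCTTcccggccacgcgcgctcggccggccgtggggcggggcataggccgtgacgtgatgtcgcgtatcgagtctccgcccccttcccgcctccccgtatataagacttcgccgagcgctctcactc
TP53I3 (chr2:24084835-24085084, - strand): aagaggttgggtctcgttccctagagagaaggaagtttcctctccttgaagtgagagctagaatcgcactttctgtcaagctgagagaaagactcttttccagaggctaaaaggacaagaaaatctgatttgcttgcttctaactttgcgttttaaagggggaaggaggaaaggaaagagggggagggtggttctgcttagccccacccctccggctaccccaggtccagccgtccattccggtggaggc
ZMAT3 had no element either. These matches describe letters in a window. They are not binding, and an absent match says nothing of sites elsewhere.

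The 9 targets did not differ in 1 direction. PLK2 and GDF15 were higher in EBC1-R, ZMAT3 was higher by a smaller amount and TP53I3 was lower. MDM2, SESN1 and RRM2B were close to equal on both arrays. SESN1 and ZMAT3 were under the level filter on both, where a change could go unseen. In all, 5 were higher and 4 lower, with a median difference of 0.09 and a range of -0.85 to 1.23. PLK2 alone was at least 2-fold higher, 1 of 9 where 1.26% of all genes were, and none was at least 2-fold lower, where 0.887% of all genes were. At 1.5-fold, 2 of 9 were higher against 4.41% of all genes, and 1 of 9 was lower against 3.16%. A count of 1 or 2 genes among 9 rests on those genes themselves. Of the 9 differences, 7 lay inside the central 95% of all genes, and PLK2 and TP53I3 lay outside it. Those of MDM2, SESN1 and RRM2B were smaller than the SD between probe sets. Each gene had 1 probe set, so none had a second reading of its own. In a bulk extract, fewer cells expressing a gene and less RNA per cell cannot be told apart.

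**Figure D1:**
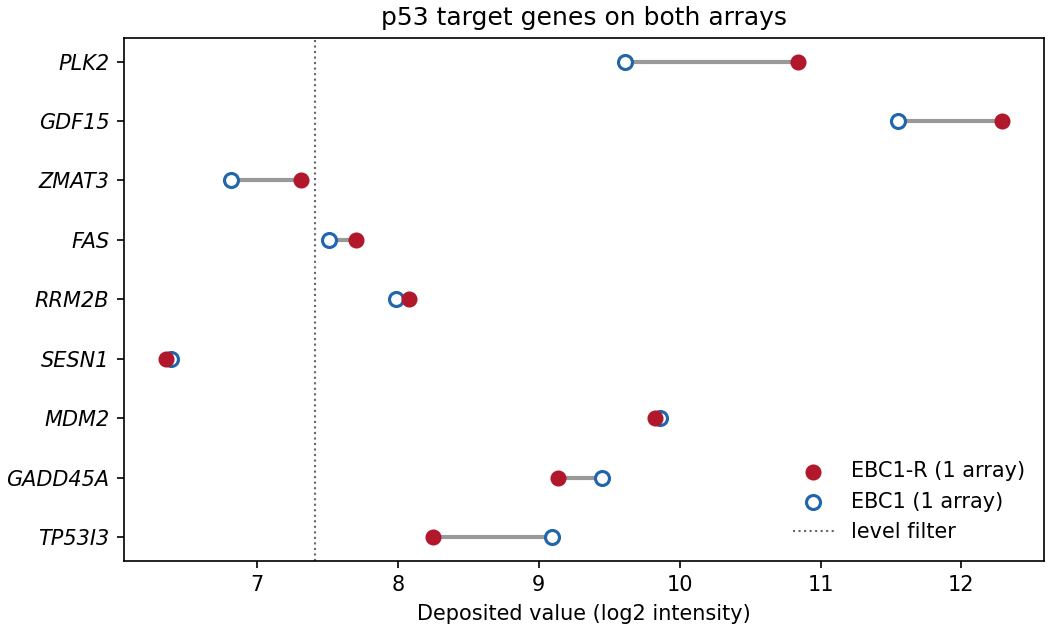
Deposited log2 intensity (horizontal axis) of each p53 target in EBC1-R (filled red) and EBC1 (open blue), 1 array each, joined by a line and ordered by difference; the dotted line is the level filter of 7.41. PLK2 and GDF15 have the filled point to the right, TP53I3 has it to the left, and the points of MDM2, SESN1 and RRM2B nearly coincide.

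MDM2 and its paralog MDM4 were close to equal on both arrays. MDM2, the ligase that marks p53 for degradation, was at 9.82 in EBC1-R and 9.86 in EBC1, a difference of -0.04, with 8947 of 18377 genes as low or lower. MDM4, its paralog, which binds p53 without being an active ligase on its own, was at 9.0 in EBC1-R and 9.15 in EBC1, a difference of -0.15. Both differences were smaller than the SD between probe sets. PPM1D, a phosphatase that is itself a p53 target and reverses p53 phosphorylation, differed by -0.13 and was chosen after its value was seen. Among the 18 measured genes of the p53 family and its regulators, 5 were higher and 13 lower, none by 2-fold, with a median of -0.14 against -0.03 over all genes. CHEK1, a checkpoint kinase that phosphorylates p53, had the largest difference of them, at 9.29 in EBC1-R and 9.95 in EBC1, or 1.57-fold lower. RCHY1, another ubiquitin ligase for p53, was 1.41-fold lower. TP53INP1, a p53-induced nuclear protein, was 1.44-fold higher, and CDKN2A, whose alternative product holds MDM2 in check, was 1.46-fold lower, both under the level filter. TP73, a p53 family member, was at 7.12 in EBC1-R and 7.41 in EBC1 and was under the filter as well.

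PLK2, a serine/threonine kinase of the polo family that acts in centriole duplication and in the stress response, had the largest difference of the 9. It was at 10.84 in EBC1-R and 9.61 in EBC1, or 2.34-fold higher, and 132 of all 18377 genes were as high or higher in difference. Its paralogs lay on the other side of zero. PLK3, also a stress-responsive and p53-linked kinase, was at 7.44 in EBC1-R and 8.83 in EBC1, or 2.62-fold lower. PLK1, which drives mitosis and is repressed downstream of p53, was at 10.30 in EBC1-R and 10.73 in EBC1, or 1.34-fold lower. PLK4, the kinase that starts centriole duplication, was 1.18-fold lower. The 2 stress-linked polo kinases thus had opposite differences on the same pair of arrays.

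GADD45A, which binds PCNA and CDK1 and acts in cell cycle arrest and in stress kinase signalling, was at 9.14 in EBC1-R and 9.45 in EBC1, or 1.24-fold lower. GADD45B differed by -0.14. GADD45G, under the level filter, differed by 0.04. Among 7 other measured genes listed for arrest, 2 were higher and 5 lower, with a median of -0.57 against -0.03 over all genes. That median is the value of GTSE1, at 7.52 in EBC1-R and 8.09 in EBC1, so it depends on listing this gene here. Of the 7, 5 were above the level filter, with a median of -0.70. RPRM and TRIM22 were under it. CDKN1A, the cyclin-dependent kinase inhibitor p21 and the classical arrest target of p53, was at 8.94 in EBC1-R and 10.03 in EBC1, or 2.13-fold lower. With PLK3 it made up the 2 genes of this role at least 2-fold lower, where 0.887% of all genes were. SFN (14-3-3 sigma), which holds cyclin B and CDK1 in the cytoplasm, was 1.62-fold lower. TRIM22, which interferon induces as well as p53, was the 1 gene at least 2-fold higher, where 1.26% of all genes were. It was at 6.63 in EBC1-R and 5.31 in EBC1, both under the filter.

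**Figure D2:**
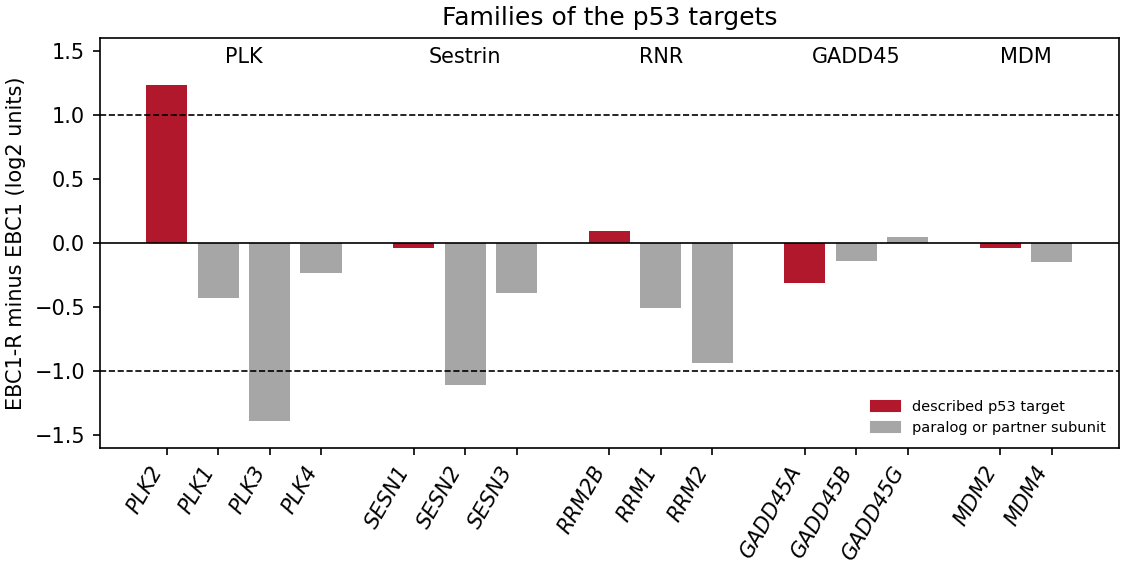
Difference EBC1-R minus EBC1 in log2 units (vertical axis) for families of the described p53 targets, red for the described gene and grey for its paralogs or partner subunits (RNR, ribonucleotide reductase); 1 array per line, no error bars, dashed lines at 2-fold. PLK2 stands above zero while PLK1, PLK3 and PLK4 stand below, and RRM2B and SESN1 lie near zero beside lower RRM1, RRM2, SESN2 and SESN3. SESN1, SESN3 and GADD45G were under the level filter on both arrays.

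FAS encodes the death receptor CD95, which recruits FADD and caspase-8 when bound by its ligand. It was at 7.70 in EBC1-R and 7.51 in EBC1, or 1.14-fold higher, with 3617 genes as high or higher in difference. Its ligand gene FASLG was under the level filter, at 5.69 in EBC1-R and 5.67 in EBC1. The adaptor FADD was 1.44-fold lower and CASP8 1.22-fold higher. CASP10, a related initiator caspase, was 1.30-fold higher and CFLAR, which blocks caspase-8, 1.09-fold higher, both under the filter. FAS and the parts of its signalling complex thus differed by less than 1.5-fold, in both directions. Among 16 other measured death genes, 6 were higher and 10 lower, with a median of -0.08. TNFRSF10A, which encodes a receptor for the death ligand TRAIL, was at 7.74 in EBC1-R and 8.86 in EBC1, or 2.19-fold lower. It was the 1 gene of this role past 2-fold, where 0.887% of all genes were lower and 1.26% higher by that much. AEN, an apoptosis-enhancing nuclease, was 1.78-fold lower, and PMAIP1 (NOXA), which binds MCL1, 1.34-fold lower. TNFRSF10D, a decoy receptor for TRAIL, was 1.44-fold higher.

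TP53I3, an oxidoreductase related to quinone reductases and known as PIG3, had the lowest difference of the 9. It was at 8.25 in EBC1-R and 9.10 in EBC1, or 1.80-fold lower, and 262 genes were as low or lower in difference. The quinone reductase NQO1, a target of the antioxidant factor NRF2, was at 12.57 in EBC1-R and 12.49 in EBC1. CRYZ, another quinone oxidoreductase, was 1.23-fold higher, and VAT1, a related protein, 1.37-fold lower. SESN1, a sestrin that restrains the growth kinase complex mTORC1, was under the filter, at 6.35 in EBC1-R and 6.39 in EBC1. SESN2, the paralog that p53 and ATF4 both induce, was at 9.28 in EBC1-R and 10.38 in EBC1, or 2.16-fold lower. SESN3, under the filter, was 1.31-fold lower. The sestrins that are stress targets of p53 therefore differed from each other, with SESN1 near zero and SESN2 past 2-fold. In 12 other measured metabolic, redox and autophagy targets, 5 were higher and 7 lower, with a median of -0.05. LPIN1, a phosphatidate phosphatase, was 2.33-fold lower. With SESN2 it made up the 2 of this role past 2-fold, where 0.887% of all genes were at least 2-fold lower. DRAM1, a lysosomal protein of autophagy, was 1.85-fold higher and TIGAR, which lowers fructose 2,6-bisphosphate, 1.49-fold higher.

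RRM2B is the p53-inducible small subunit of ribonucleotide reductase, which supplies deoxynucleotides for repair outside S phase. It was at 8.08 in EBC1-R and 7.98 in EBC1, a difference of 0.09. The other subunits were lower, with RRM2, the small subunit used in S phase, at 8.62 in EBC1-R and 9.56 in EBC1, or 1.92-fold lower, and RRM1 at 9.40 in EBC1-R and 9.90 in EBC1, or 1.42-fold lower. RRM1, the large subunit, also pairs with RRM2B. Among 7 other measured repair genes, 5 were higher and 2 lower, none past 2-fold, with a median of 0.11. RPS27L, a ribosomal protein paralog induced by p53, was 1.69-fold higher, and the nucleotide excision repair gene DDB2 1.18-fold and the translesion polymerase gene POLH 1.11-fold higher. PCNA, which also serves replication, was 1.31-fold lower.

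GDF15, a secreted TGF-beta family factor made under cell stress, had the highest difference after PLK2 among the 9. It was at 12.29 in EBC1-R and 11.55 in EBC1, or 1.67-fold higher, and 486 genes were as high or higher in difference. Its receptor gene GFRAL was at 4.62 in EBC1-R and 4.68 in EBC1, under the filter. Since ATF4 also induces GDF15, 16 genes of the ATF4 response were set beside it. Of these, 7 were higher and 9 lower, with a median of -0.19 against -0.03 over all genes. NUPR1, a stress-induced chromatin protein, was 2.16-fold higher, whereas PSAT1, of serine synthesis, was 1.85-fold, the asparagine synthetase gene ASNS 1.73-fold and PPP1R15A, a phosphatase subunit that restores translation, 1.58-fold lower. The part of ATF4 in the GDF15 value was not tested. ZMAT3, a zinc finger protein that binds RNA and controls splicing, was at 7.32 in EBC1-R and 6.82 in EBC1, or 1.41-fold higher, under the filter on both arrays. Its namesakes ZMAT1, ZMAT2, ZMAT4 and ZMAT5 differed by 0.01 to 0.26.

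**Figure D3:**
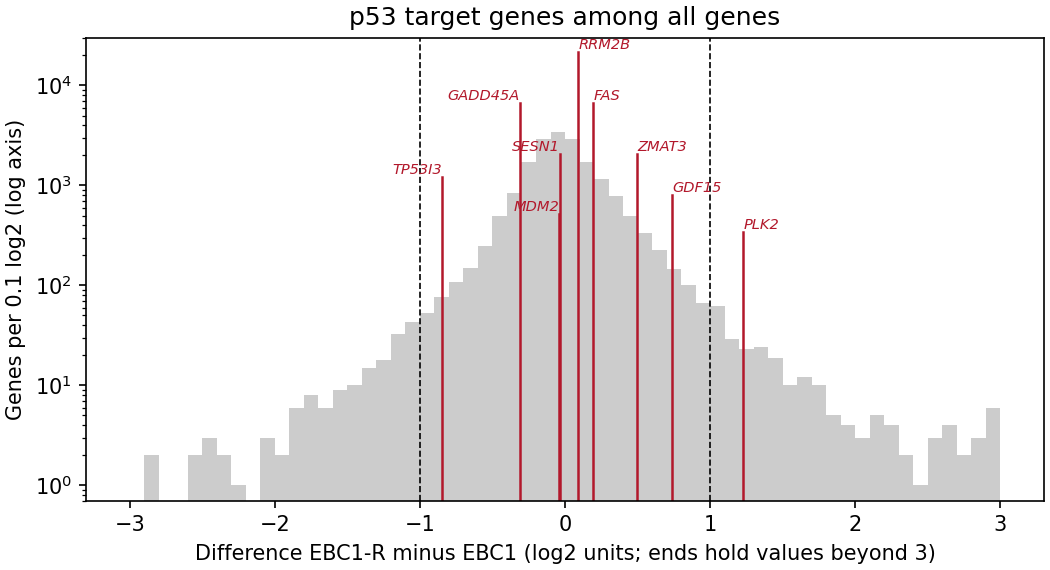
Number of genes (vertical axis, log scale) by difference EBC1-R minus EBC1 in log2 units (horizontal axis, bins of 0.1, end bins holding values beyond 3), with the p53 targets as red lines whose heights only separate the labels; dashed lines mark 2-fold. PLK2 at 1.23 lies beyond 2-fold, TP53I3 at -0.85 lies in the lower tail, and the other 7 genes lie inside the central 95% of genes.

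Targets outside the 9 lay on both sides of zero, from -1.39 to 2.61. Of 60 measured genes in 6 roles, 29 were higher and 31 lower, and the median was -0.03, as over all genes. At least 2-fold higher were 5, or 8.33%, where 1.26% of all genes were, and at least 2-fold lower were 5, or 8.33%, where 0.887% were. The lists were chosen with earlier results of these data known, so these shares are not a test of p53 targets. Of the 60, 45 were above the level filter, of which 4 were higher and 5 lower by 2-fold or more. Among all genes above the filter, 2.13% were higher and 1.67% lower by that much. The filter takes the brighter value, and TP53TG1 passed it only through EBC1-R, at 8.93 against 6.76 in EBC1. The genes past 2-fold were spread over 5 of the 6 roles. Those higher were TRIM22, IGFBP3, THBS1, KITLG and TP53TG1, and those lower were PLK3, LPIN1, TNFRSF10A, SESN2 and CDKN1A. Among 7 secreted, matrix and cytoskeletal targets, IGFBP3, which binds insulin-like growth factors, was at 10.70 in EBC1-R and 8.09 in EBC1, or 6.10-fold higher. THBS1, an inhibitor of angiogenesis, was 3.02-fold higher and KITLG, the ligand of the receptor KIT, 2.04-fold higher, while the serpin gene SERPINB5 was 1.70-fold lower. Of 11 targets of feedback and other roles, TP53TG1, a noncoding RNA gene, was 4.52-fold higher, at 8.93 in EBC1-R and 6.76 in EBC1. It lies on chromosome 7 between TMEM243 and CROT, which differed by 1.58 and 2.67, and the drug efflux pump gene ABCB1, the third gene beyond it, differed by 7.27. The other genes of that role were within 1.5-fold, with TP53I13 1.23-fold lower, ARRDC3, an arrestin family gene, 1.22-fold higher and the fucosidase gene FUCA1 1.19-fold higher.

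**Figure D4:**
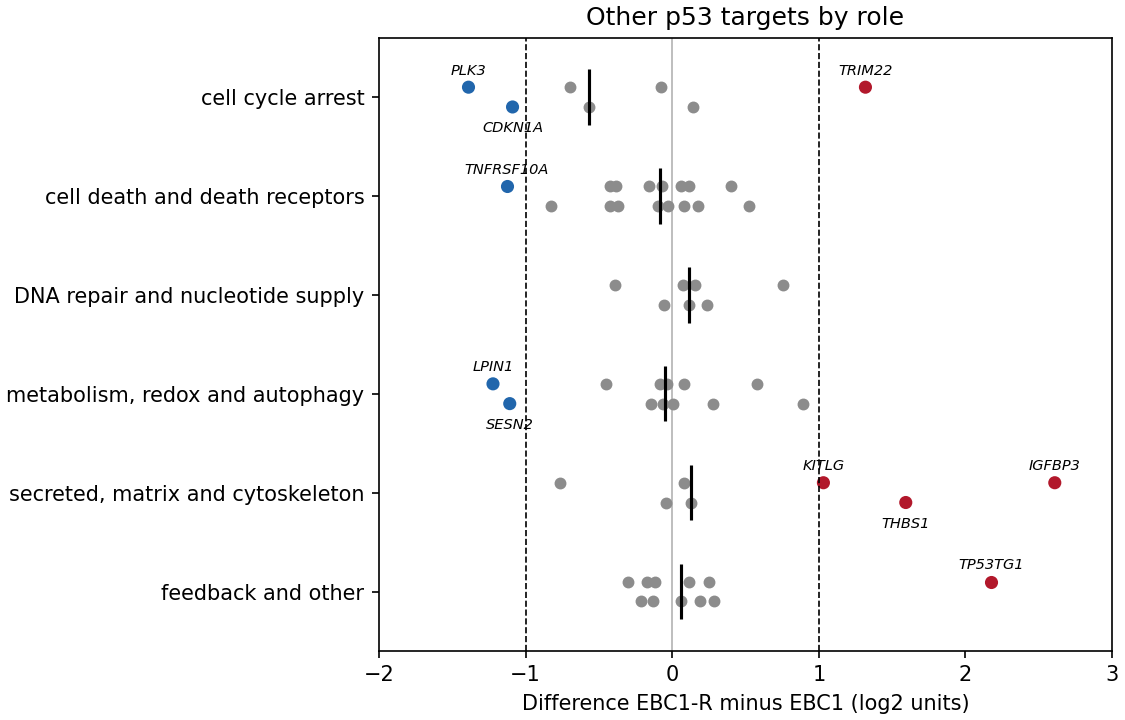
Difference EBC1-R minus EBC1 in log2 units (horizontal axis) of 60 other p53 targets by role, 1 point per gene, with the median of each role as a black bar and dashed lines at 2-fold; genes at least 2-fold higher are red and named, those at least 2-fold lower blue and named. The 5 red and 5 blue points fall in every role but DNA repair. The genes listed for arrest have the lowest median, -0.57, which is the value of GTSE1.

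p53 also lowers cell cycle genes indirectly, through p21 and the DREAM repressor complex. Of 21 measured genes of that kind, 2 were higher and 19 lower, with a median of -0.42, where 10197 of all 18377 genes were lower and their median was -0.03. MYBL2, a transcription factor of the cell cycle, was 2.21-fold lower, the 1 gene of 21 past 2-fold, where 0.887% of all genes were at least 2-fold lower. The mitotic kinase gene AURKB was 1.96-fold, MCM5, a subunit of the replicative helicase, 1.65-fold and CDK1 1.58-fold lower. CDKN1A, which acts upstream of this repression, was lower on the same arrays, and its part in these values was not tested.

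Genes beside the 9 on the chromosome were looked at next. The 5 measured genes on each side of each of the 9, 90 in all, had a median difference of -0.05. None was at least 2-fold lower, where 0.887% of all genes were. Of the 90, 2 were at least 2-fold higher, where 1.26% of all genes were. Both lay beside FAS on chromosome 10: IFIT2, at 7.56 in EBC1-R and 6.21 in EBC1, and IFIT3, at 7.52 in EBC1-R and 6.22 in EBC1, which are interferon response genes. ACTA2 and CH25H, directly beside FAS, differed by 0.08 and 0.01. Around PLK2 the direct neighbours ACTBL2 and GAPT differed by 0.00 and -0.11, and PDE4D, the third gene beyond, by -0.94. Around GDF15 the direct neighbours PGPEP1 and LRRC25 differed by -0.19 and -0.23, and its 10 neighbours ranged from -0.32 to 0.05, where GDF15 differed by 0.74. SF3B6 and PFN4 beside TP53I3 differed by -0.20 and 0.01. The direct neighbours of MDM2, SLC35E3 and CPM, differed by -0.37 and -0.08. Those of SESN1, ARMC2 and CEP57L1, differed by -0.35 and 0.41. Those of ZMAT3, KCNMB2 and KCNMB3, differed by 0.10 and 0.17. Beside RRM2B, NCALD differed by -0.12 and ODF1 by -0.01, and beside GADD45A, IL12RB2 differed by -0.11 and GNG12 by -0.01. Of these direct neighbours, all but SLC35E3, PGPEP1, SF3B6 and GNG12 were under the level filter on both arrays, where a change could go unseen.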

How the data were processed

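Each cell line was measured on 1 array. Per the labels' protocols, RNA was extracted with Trizol and labelled by an Affymetrix whole-transcript protocol. The labels name an HG-U133 array, but the identifiers match the annotation of another Affymetrix array. The table the authors deposited holds 1 number for every probe set on an array. Its range, 4.21 to 14.2, led to reading the deposited values as log2 intensities. Log base, background correction and normalization were not stated in the labels. The column medians were 6.71 in EBC1-R and 6.73 in EBC1, and whether a change shared by most genes was removed before deposit is not known. No detection calls were used, and low intensities are not separated from background.

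Of 28869 probe sets, 19310 had 1 gene symbol and entered, 1752 had several and 7807 none. Values were averaged per gene (18377 genes, 18348 matched to RefSeq by identifier) in Python 3.11.15 with pandas 2.3.3. Gene order came from RefSeq (GRCh38.p14). The described genes and gene lists were chosen with earlier results of these data known. List genes without a value are not analysed here. Named were all 9 genes, MDM4 and the p53 family, every paralog or partner, per list each gene past 2-fold or otherwise the largest differences up to 4, and direct neighbours. With 1 array per group no test was made. Counting was tested on simulated data. Alternatives were quantile normalization, median centring, removal of a lowess trend (span 0.2), a pseudocount of 16, the brightest probe set, the level filter, and thresholds of 1.5-fold and 3-fold.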

Additional observations from a re-analysis of the deposited data

How the results depend on the processing

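The 9 differences moved by at most 0.06 log2 units under quantile normalization, median centring, lowess removal and the pseudocount, less than the 0.16 between probe sets of 1 gene. Using the brightest probe set changed none, as each gene has 1 probe set. One sign changed, that of SESN1, at 0.02 after lowess removal. With a threshold of 1.5-fold in place of 2-fold, 2 genes were higher and 1 lower, and with 3-fold 0 were higher. The counts for the 60 other targets stayed within 1.5 times under every normalization, summary and filter tried. Their median, -0.03, was 0.01 after lowess removal and -0.07 above the level filter, so its sign is not settled. Of 78 recomputed medians of single lists 5 moved by more than the SD between probe sets: above the filter, secreted targets to 1.03, FAS partners to -0.12, epithelial and squamous markers to -0.33 and leukocyte markers to 0.40 (CD68 alone), and with the brightest probe set FAS partners to 0.28. In all, 4 changed sign. No paired analysis was possible because each group has 1 array. The number of arrays limits the precision, and SESN1 and ZMAT3 lie at low signal.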
